A study of Homo sapiens with 6 samples.

Results

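The 10 genes described here encode receptors and ligands of axon guidance: the Eph A receptors EPHA3, EPHA5, EPHA6 and EPHA7, the receptors ROBO1 and ROBO2, their ligands SLIT2 and SLIT3, and the netrin receptors DCC and UNC5D. They were taken by name, and all 10 were found among 19974 protein-coding genes of the RefSeq table on chromosomes 1 to 22 and X. For each gene the covered share was computed, the percentage of its body, or of its body with 200 kb added on each side, that lay inside called LaminB1 regions. LaminB1 is the B-type lamin of the meshwork under the nuclear envelope, and CUT&RUN releases and sequences the chromatin that an antibody to it binds.

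The cells were HCT116, a human colorectal carcinoma line in which both TOP2A alleles carry the mini auxin-inducible degron (mAID). Control cells, labelled wildtype, were this TOP2A mAID line without auxin, so they carry the degron too. Double loss cells were TOP2A mAID/TOP2B -/-, a CRISPR/Cas9 knockout of TOP2B in that line, and received 500 uM indole-3-acetic acid (auxin) during 8 h. The series text states that auxin can eliminate as much as 95% of TOP2A. Palbociclib, given at 2 uM over 28 h, arrested both kinds of cells in G1. Auxin, TOP2B loss and TOP2A loss differ together between the groups and cannot be told apart. There were 2 LaminB1 libraries in each group, beside 1 IgG library that was not analysed as a sample. The labels do not say whether the 2 libraries were separate cultures, so p-values measure a spread that may be technical.

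Each LaminB1 library has 1 list of called regions on hg38, with 10771 to 13599 regions over 549 to 622 Mb and 7263458 to 8351031 LaminB1 reads inside them. Reads outside regions are not listed, so total depth is unknown. The lists of a group share a control library and those of different groups do not: regions with the same edges had equal control library counts in 105 of 105 cases within a group and in 3 of 154 between groups. Per kb of region, that library had 6.93 and 6.97 reads in the controls but 8.86 and 8.83 with double loss. A share of 0% means that no region was called, not that LaminB1 was absent.

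Axon guidance receptors sit on the growth cone of an extending axon and read attracting and repelling cues. SLIT proteins are secreted and repel axons through ROBO receptors, netrin attracts through DCC and repels where an UNC5 receptor takes part, and Eph A receptors are tyrosine kinases that respond to ephrins on the surface of neighbouring cells. DCC takes its name from its deletion in colorectal carcinoma. These genes are long, work mainly in the developing nervous system, and long neuronal genes of this kind often lie in lamina-associated, gene-poor chromatin in cells that do not use them.

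The 250 bases before the outermost listed start are shown for 4 genes that span the range of the data: SLIT3, almost all inside regions, SLIT2 and DCC, partly inside, and EPHA5, with no region in any list. Capitals mark CG dinucleotides. Sequences are from RefSeq (GRCh38.p14) and run 5′ to 3′ on the strand of the gene.
SLIT3, chr5:169301140-169301389, minus strand: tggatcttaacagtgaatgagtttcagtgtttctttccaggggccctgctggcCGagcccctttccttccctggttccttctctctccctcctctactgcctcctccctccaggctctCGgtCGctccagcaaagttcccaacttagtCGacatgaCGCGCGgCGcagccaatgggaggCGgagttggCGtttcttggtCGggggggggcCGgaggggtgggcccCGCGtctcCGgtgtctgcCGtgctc
SLIT2, chr4:20251655-20251904, plus strand: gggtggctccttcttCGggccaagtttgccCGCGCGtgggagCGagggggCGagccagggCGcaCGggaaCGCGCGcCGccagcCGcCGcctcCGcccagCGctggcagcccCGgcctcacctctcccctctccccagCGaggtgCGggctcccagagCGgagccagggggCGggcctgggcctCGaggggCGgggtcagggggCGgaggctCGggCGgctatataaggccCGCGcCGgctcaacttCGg
DCC, chr18:52339947-52340196, plus strand: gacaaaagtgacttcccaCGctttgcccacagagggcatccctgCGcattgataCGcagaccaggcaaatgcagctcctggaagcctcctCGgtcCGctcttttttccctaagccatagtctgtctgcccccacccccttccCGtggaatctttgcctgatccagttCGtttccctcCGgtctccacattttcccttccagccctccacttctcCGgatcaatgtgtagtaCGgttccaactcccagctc
EPHA5, chr4:65670490-65670739, minus strand: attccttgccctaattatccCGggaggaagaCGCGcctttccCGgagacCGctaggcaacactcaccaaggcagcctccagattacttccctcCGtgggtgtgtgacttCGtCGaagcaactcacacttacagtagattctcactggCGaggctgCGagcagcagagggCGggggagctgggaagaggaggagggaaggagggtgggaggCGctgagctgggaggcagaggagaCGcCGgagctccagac
These windows held 16 CG in SLIT3, 30 in SLIT2, 10 in DCC and 14 in EPHA5, against a median of 11 over 35116 promoters of the same length. The exact motif TATAAA was in none of these 4 windows on either strand, and in 10.7% of all promoters. Variants of it were not searched for, and the SLIT2 window holds the similar tatataag. The promoter table matched 9 of the 10 genes, not UNC5D, and 8 of them by the outermost start. The SLIT3 window was the only one of those 8 inside a region, 100% in control 2 and in double loss 2 and 0% in control 1 and double loss 1. In those last 2 lists the nearest region began 0.862 kb from the SLIT3 start, so the start lay in a short gap between regions. Of 13793 protein-coding genes with a listed outermost start, between 5.05% and 5.79% had it inside a region, depending on the list.

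The 2 SLIT genes also host copies of the microRNA miR-218, which is known to act on ROBO1 messenger RNA. The mature sequence is the same from both loci, and is shown with its seed, bases 2 to 8, in capitals because the 2 host genes differ in how far they lie inside regions.
hsa-miR-218-5p: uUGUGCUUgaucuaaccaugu
The hairpin MIR218-2, on chromosome 5 from 168768146 to 168768255 within SLIT3, lay inside a region in all 4 lists. MIR218-1, on chromosome 4 from 20528275 to 20528384 within SLIT2, lay inside a region in control 2 and double loss 2 and outside in the other two. The copy in SLIT2 thus differed between the 2 libraries of each group.

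Across the 10 genes the bodies spanned 7.53 Mb, of which 1040 and 960 kb lay inside regions in control 1 and 2 and 1221 and 1261 kb in double loss 1 and 2. As a share this was 13.8% and 12.7% for the controls, and 16.2% and 16.7% for double loss. The 1616 protein-coding genes at least as long as the shortest of the 10 (EPHA7, 180 kb) were covered at 27.4% and 25.7%, and at 27.8% and 28.2%. By total length the guidance genes were therefore less covered than long genes as a class in every list. The mean over genes was also lower, at 15.1% (control) and 18.1% (double loss) against 22.5% and 23.9%. The median gene went the other way, at 2.76% and 4.39% against 0% and 0%. No list had a region in 20% of the 10 bodies, against 49.3% of the long genes. SLIT3 held more of the covered sequence than any other of the 10. Of the 10, only SLIT3 was at least 50% covered in all 4 lists, while 4 genes (EPHA5, EPHA7, ROBO1 and ROBO2) stayed under 5% in every list. Among the 1616 long genes 17.6% were at least 50% covered in all lists and 51.2% under 5%.

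**Figure D1:**
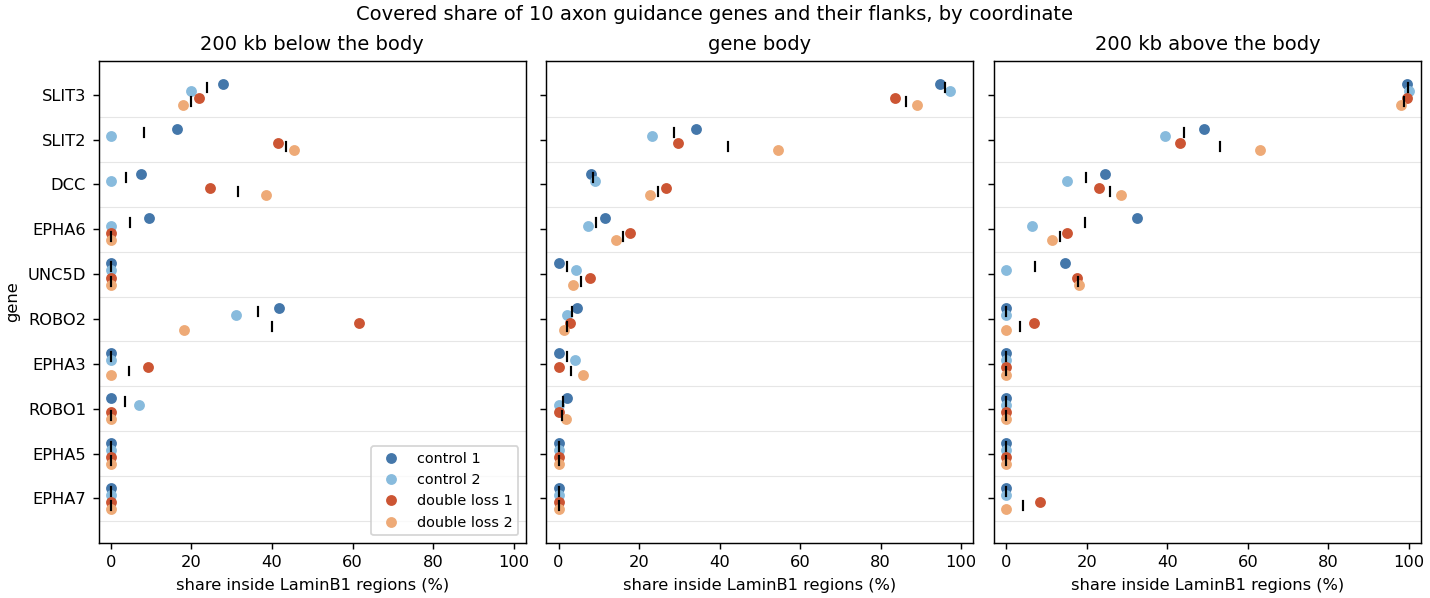
Share of sequence inside LaminB1 regions (%, horizontal axis) for each of the 10 genes (vertical axis), in the 200 kb on the lower-coordinate side, the gene body and the 200 kb on the higher-coordinate side. Points are single libraries and short black lines the means of the 2 libraries of a group; SLIT3 lies near 100% in its body and on its higher side, and EPHA5 at 0% throughout.

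In the control group the order of mean body shares was SLIT3 (96.0% ± 1.67), SLIT2 (28.6% ± 7.67), EPHA6 (9.40% ± 2.99), DCC (8.53% ± 0.585), ROBO2 (3.30% ± 1.66), UNC5D (2.23% ± 3.15), EPHA3 (2.00% ± 2.83) and ROBO1 (1.02% ± 1.45; SD, n = 2 each), with EPHA5 and EPHA7 at 0%. SLIT3 and SLIT2 stood apart from each other and from the rest. EPHA6 and DCC overlapped, as did each of the next neighbours in the order, ROBO2 with UNC5D, UNC5D with EPHA3, and EPHA3 with ROBO1. In the double loss group the order was SLIT3 (86.3% ± 3.89), SLIT2 (42.0% ± 17.6), DCC (24.6% ± 2.77), EPHA6 (15.9% ± 2.54), UNC5D (5.70% ± 3.02), EPHA3 (3.07% ± 4.34), ROBO2 (2.01% ± 1.05) and ROBO1 (0.897% ± 1.27; SD, n = 2 each), with EPHA5 and EPHA7 again at 0%. There DCC lay above EPHA6 without overlap, while the neighbours from UNC5D to ROBO1 again overlapped.

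The groups were compared to see whether the guidance genes lay more or less inside LaminB1 regions when TOP2A and TOP2B were both lost. No gene of the 10 passed limma at an adjusted p under 0.05, in its body or in its 200 kb window. Over all 3058 bodies with covered sequence, 1.67% were called higher and 0.981% lower, and over 6353 windows 1.92% and 1.35%. At an unadjusted p under 0.05 there was 1 body higher, DCC, and 1 lower, SLIT3, where the background was 9.58% and 5.98%. Among windows DCC alone was higher at that level and none lower, where the background was 16.2% and 8.37%. Of the 8 bodies that had any covered sequence and so entered the fit, double loss lay above both controls in 2 (DCC and EPHA6), below both in 1 (SLIT3) and overlapped in 5. The same held for 21.5% and 13.9% of all bodies fitted, and for 33.1% and 19% of the 819 long genes fitted. The median difference of the 8 bodies was 2.27 percentage points, against 0.768 over all 3058 and 1.62 over the long genes.

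SLIT3, a secreted repellent at 168661740 to 169301139 on chromosome 5, was the one gene of the set that lay almost whole inside LaminB1 regions. Its body was covered at 94.8% and 97.2% in control 1 and 2 and at 83.6% and 89.1% in double loss 1 and 2. Both double loss lists lay below both controls, with means of 96.0% and 86.3% and an unadjusted p = 0.0338 and an adjusted p = 0.266 by limma. In 475 kb of the body all 4 lists had a region. The window was at 82.8% in both controls and at 74.8% and 77.1% (limma adjusted p = 0.217).

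Inside SLIT3 the difference was largest in the second of 4 equal parts counted from the start, at 100% and 96.9% in the controls and 51.8% and 82.5% with double loss. In the third part the groups overlapped, at 93.7% and 97.5% against 100% and 86.9%. Sequence that both controls and no double loss library had inside a region came to 24 kb, in 2 stretches of 12 kb from 168990001 to 169002000 and from 169023001 to 169035000. The regions were also more broken up. The SLIT3 body was met by 4 and 5 control regions and by 7 and 10 double loss regions, and the widest of these was 344 and 565 kb in the controls and 241 and 130 kb with double loss. Of these widest regions, 344 and 294 kb lay within the body in the controls, and 241 and 104 kb with double loss. With gaps of up to 10 kb joined, the difference in SLIT3 was -7.66 points. The 4 parts were set after values had been seen and were not tested, here and in the genes below.

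The regions of SLIT3 held the most reads of the 10 genes, 8030 and 13017 LaminB1 reads for the controls and 7172 and 8155 for double loss. Regions were counted whole, also where they ran beyond the gene, over 617 and 921 kb in the controls and 538 and 611 kb with double loss. Density was 13.0 and 14.1 LaminB1 reads per kb in the controls and 13.3 in both double loss lists, near the means of their lists (12.4, 13.2, 13.4 and 13.4). Control library reads over these regions were at 0.980 to 1.04 times the mean of their list in all 4, so they did not stand apart from other regions of the same list. The widest region in control 2, from 169007001 to 169572000, had a log2 fold of 0.86 and was stronger than 90.6% of its list. The widest in double loss 1, from 168744001 to 168985000, had 0.47 and was stronger than 39.1% of its list. It shares no sequence with the widest of control 2, so these values do not compare the groups at one place. Over the stretch of double loss 1, control 2 had regions stronger than 37.8% and 44.8% of its list. Control 1 had regions there stronger than 37.5%, 28.8% and, for its widest, 79.5% of its list. The widest in double loss 2 was stronger than 60.4% of its list. With only the upper 50% of regions by log2 fold SLIT3 was at 53.8% and 46.0% against 8.17% and 27.1%, still with no overlap but with an adjusted p = 0.367 by limma.

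SLIT3 lay between densely and sparsely covered sequence. On the higher-coordinate side, before its start, 99.6% and 100% of 200 kb were covered in the controls, and 99.6% and 98.0% with double loss. On the lower-coordinate side, beyond its far end, the share was 27.9% and 19.9% against 21.9% and 17.9%. The neighbours there, PANK3, FBLL1, RARS1 and WWC1, were at 0% in all lists.

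SLIT2, the other SLIT ligand here, at 20251905 to 20620561 on chromosome 4, varied most between libraries of 1 group. Its body was at 34.1% and 23.2% in the controls and at 29.6% and 54.4% with double loss. The groups overlapped, and limma gave an adjusted p = 0.592. Without double loss 2 the difference was 0.933 points, against 13.4 with all libraries and 25.8 without double loss 1. It was 5.995 points with quantile-normalized shares and 7.11 with the upper 50% of regions by fold. In all 4 lists the last of the 4 parts was the most covered, at 95.0% and 52.3% against 64.0% and 91.3%, and the first part was at 0% in all but double loss 2, which had 28.3%.

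The third part of SLIT2 did not overlap between groups, at 15.2% and 18.9% in the controls and 42.1% and 59.9% with double loss. The 200 kb before the start did not overlap either, at 16.5% and 0% against 41.5% and 45.5%, while the 200 kb beyond the far end overlapped, at 49.0% and 39.5% against 43.3% and 63.0%. The window was at 33.4% and 21.4% against 36.2% and 54.3%, above both controls but with an adjusted p = 0.294 by limma. KCNIP4, a potassium channel interacting protein gene that overlaps the higher-coordinate flank, was at 38.8% and 27.8% against 51.6% and 48.7% (limma adjusted p = 0.510). PACRGL, on the same side, overlapped, at 0% and 7.56% against 0% and 30.1%. With 500 kb flanks in place of 200 kb, the windows of SLIT2 and DCC passed limma, at 22.6 points (adjusted p = 0.0428) and 18.1 points (adjusted p = 0.0244), where 10.2% of 8416 windows were called higher and 4.84% lower. In SLIT2 such a window is mostly flank.

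**Figure D2:**
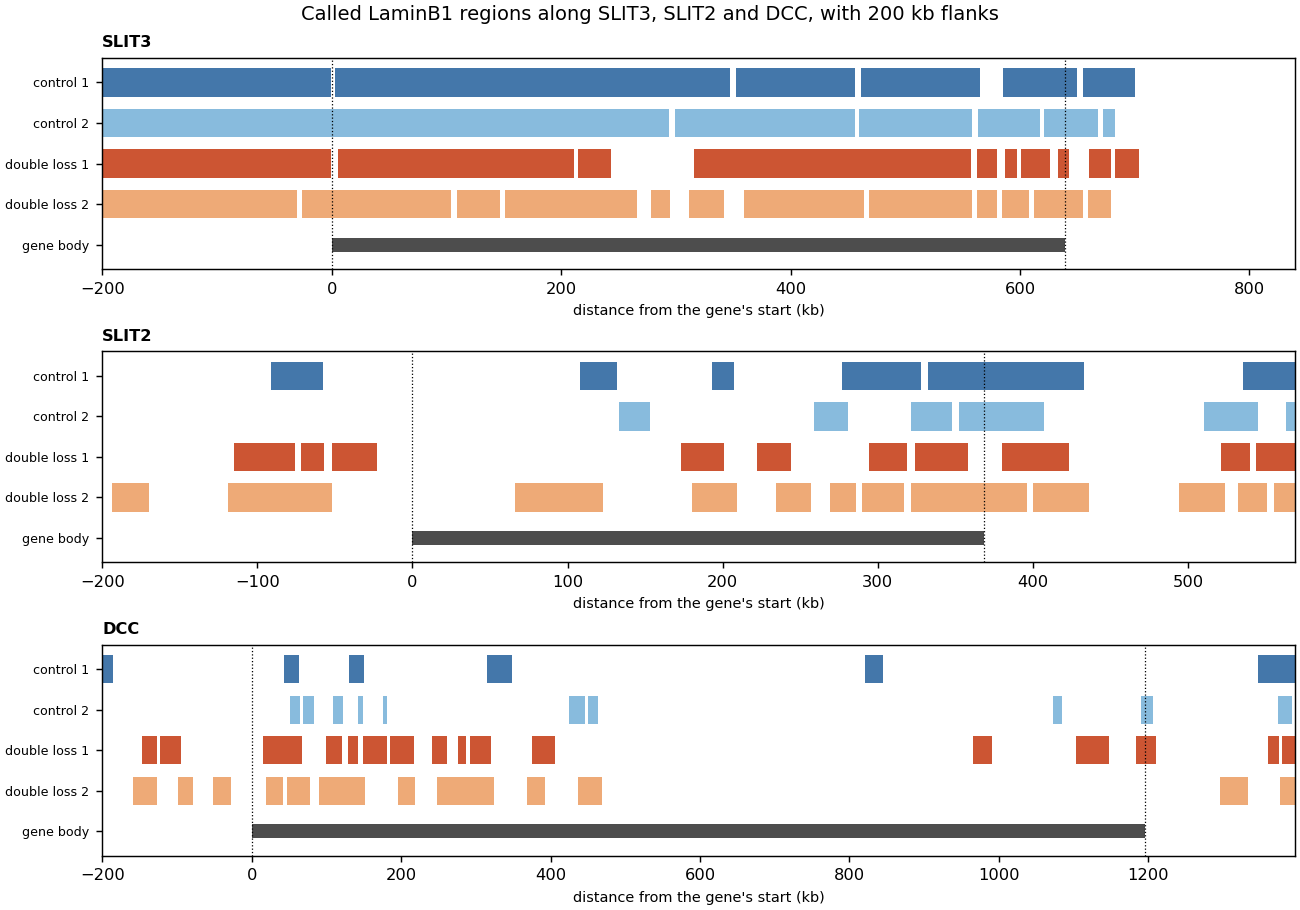
Called LaminB1 regions (coloured blocks, 1 row per library) along SLIT3, SLIT2 and DCC with 200 kb flanks; the horizontal axis is the distance from the gene's start in kb, in the direction of transcription, and dotted lines mark both ends of the body. In DCC the double loss libraries have more blocks near the start, and in SLIT3 their blocks are more broken up than those of the controls.

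ROBO1 and ROBO2, the receptors that SLIT proteins act through, both lie on the short arm of chromosome 3 and were nearly free of regions. ROBO1, at 78597239 to 79767998, had 1 region of 24 kb in control 1, 1 of 21 kb in double loss 2 and none in the other lists. Its body was at 2.05% and 0% in control 1 and 2 and at 0% and 1.79% with double loss, so the groups overlapped. ROBO2, at 75906675 to 77649964 and the longest of the 10, was at 4.47% and 2.12% in the controls and at 2.75% and 1.26% with double loss. These overlapped as well, and no stretch of either body was in all 4 lists. The 200 kb on the lower-coordinate side of ROBO2, with the zinc finger gene ZNF717, were more covered than its body in each list, at 41.7% and 31.2% against 61.7% and 18.2%. Inside ROBO2, 9 kb from 75928001 to 75937000 lay inside a region in both double loss libraries and in no control.

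DCC, the receptor through which netrin attracts, at 52340197 to 53535899 on chromosome 18, had the largest difference of the 10 in body share with all regions counted. Its body was covered at 8.11% and 8.94% in control 1 and 2 and at 26.6% and 22.7% in double loss 1 and 2. Both double loss lists lay above both controls, by 16.1 percentage points in the mean, which is more than the spread in either group. By limma over all bodies this gave an unadjusted p = 0.0178 and an adjusted p = 0.190. With quantile-normalized shares the difference was 7.68 points (limma adjusted p = 0.599). On the scale of the fit, the arcsine of the square root of the share, the difference was 0.223 with a standard error of 0.0433. The window of DCC with 200 kb flanks was at 10.1% and 8.59% against 25.9% and 25.4% (limma adjusted p = 0.0829). Chromosome 18 as a whole was at 15.1% and 12.6% against 15.2% and 16.6%.

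The difference in DCC was largest near its start. In the first of its 4 parts the share was 13.0% and 18.4% in the controls and 61.6% and 63.6% with double loss. The second part was at 11.4% in both controls and at 17.4% and 27.1%. In the third part no double loss list had a region, and control 1 had 8.03%. The last part was at 0% and 5.99% against 27.4% and 0%, so it rested on double loss 1.

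The DCC sequence inside regions in each double loss library and in no control summed to 121 kb in 10 stretches, all between 18.8 and 393 kb from the start. The widest of them ran from 52359001 to 52382000 (23 kb), from 52633001 to 52655000 (22 kb) and from 52536001 to 52557000 (21 kb). The body held no sequence of the opposite kind. Both controls had a region only from 52391001 to 52403000 and from 52482001 to 52489000, so little there could be lost. The DCC start itself lay outside regions in all lists, with the nearest region 43.8 and 50.8 kb away in the controls and 15.8 and 18.8 kb away with double loss. The 200 kb on the lower-coordinate side, before the start, were covered at 7.40% and 0% in the controls and at 24.5% and 38.5% with double loss. On the far side of the gene the shares overlapped, where only double loss 2, at 28.4%, exceeded control 1, at 24.4%.

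The regions over DCC numbered 4 and 9 for the controls and 12 and 7 for double loss, with 1029, 1350, 3765 and 3173 LaminB1 reads. Their median log2 fold, the authors' measure of LaminB1 against control library reads, was 0.57 and 0.65 for the controls and 0.49 and 0.42 for double loss. Within their lists, whose medians were 0.55, 0.60, 0.51 and 0.50, the control values lay above the median and the double loss values below it. When regions below the median fold of their list were left out (upper 50%), DCC was at 6.52% and 4.93% against 7.52% and 4.52%, a difference of 0.293 points. The difference in DCC therefore rested on regions in the lower 50% of each list by fold. Relative to the mean of the list, control library reads over the DCC regions were at 0.852 and 0.834 in the controls and at 0.914 and 0.940 with double loss, and the part of this in the result was not tested.

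UNC5D, the UNC5 family netrin receptor at 35235475 to 35796540 on chromosome 8, was at 0% and 4.46% in the controls and at 7.84% and 3.56% with double loss. The body groups overlapped (limma adjusted p = 0.589). Chromosome 8 was the chromosome with the highest covered share in each list, at 41.7% to 45.7%, and UNC5D stayed under 8% of its body in all of them. In its window the double loss lists lay above both controls, at 8.22% and 5.83% against 3.02% and 2.60% (adjusted p = 0.365), and with the upper 50% of regions by fold the window turned to -1.30 points. Over all 10 windows, 4 lay above both controls (DCC, SLIT2, UNC5D and EPHA3), 1 below (SLIT3), and 4 of the other windows with covered sequence overlapped. Among all windows fitted these shares were 29.6% and 19.6%.

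**Figure D3:**
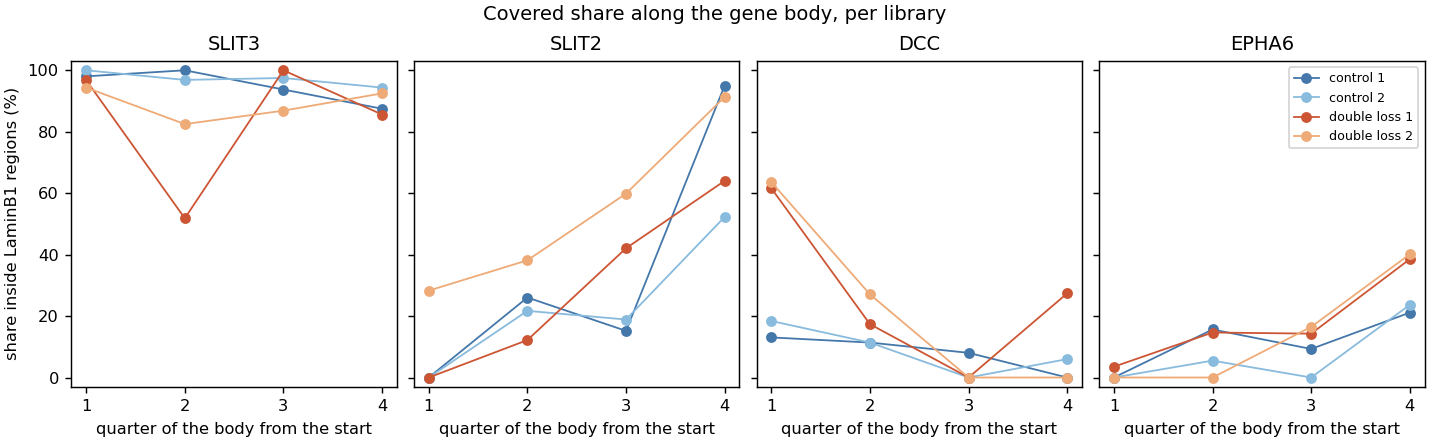
Share inside LaminB1 regions (%, vertical axis) in each of 4 equal parts of the gene body counted from the start (horizontal axis), for SLIT3, SLIT2, DCC and EPHA6, with 1 line per library. The double loss libraries lie at 61.6% and 63.6% in the first part of DCC, where the controls are at 13.0% and 18.4%.

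Of EPHA3, EPHA5, EPHA6 and EPHA7, only EPHA6 had covered sequence in all 4 lists. EPHA6, at 96814594 to 97761532 on chromosome 3, was at 11.5% and 7.29% in the controls and at 17.7% and 14.2% with double loss. The double loss lists lay above both controls, with an adjusted p = 0.589 by limma, and with quantile-normalized shares the difference turned to -1.39 points. With the upper 50% of regions by fold it was 0.158 points and the groups overlapped, at 6.23% and 1.37% against 6.13% and 1.80%. The last of the 4 parts was the most covered in every list, at 21.1% and 23.7% against 38.5% and 40.1%. Sequence inside a region in each double loss library and in no control came to 38 kb, with stretches from 97527001 to 97546000 and from 97552001 to 97567000, and only 4 kb was in all 4 lists. In the window with flanks the groups overlapped, at 14.3% and 6.09% against 14.7% and 11.7%.

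EPHA3, at 89107621 to 89482134 on chromosome 3, had a region in 1 library of each group. Control 2 had 1 of 15 kb with 159 LaminB1 reads, and double loss 2 had 1 of 23 kb with 265 reads, further along the gene. The 2 regions shared no sequence, and the body was at 4.01% and 6.14% in those lists and at 0% in the others. EPHA5, at 65319567 to 65670489 on chromosome 4, had no region in its body or within 200 kb in any list. The nearest region was 222 kb away in control 2 and 1177 to 1368 kb away in the other lists. EPHA7, at 93240020 to 93419559 on chromosome 6, had no region in its body, and within 200 kb only in double loss 1, where the window share was 2.86%. Its nearest region was 391 and 1500 kb away in the controls and 183 and 235 kb away with double loss. Without double loss 2 the window of EPHA7 passed limma (adjusted p = 0.00962), a call that rests on that single flank region.

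**Figure D4:**
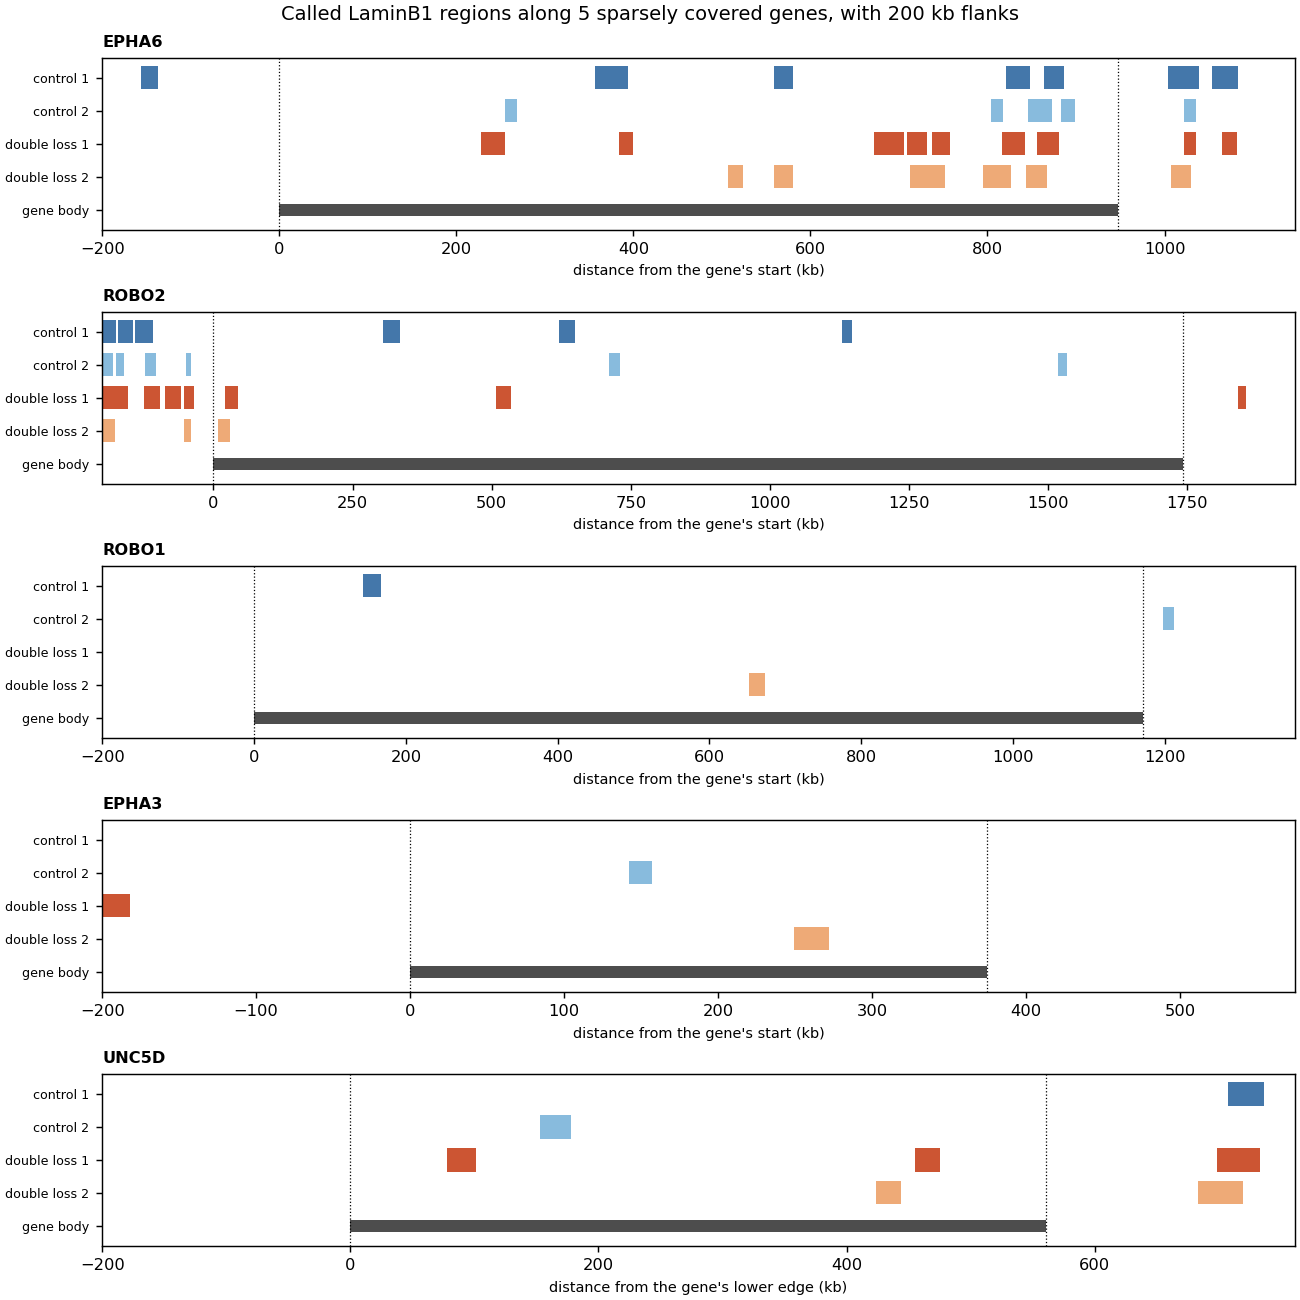
Called LaminB1 regions (coloured blocks, 1 row per library) along EPHA6, ROBO2, ROBO1, EPHA3 and UNC5D with 200 kb flanks; the horizontal axis is the distance in kb from the gene's start or, for UNC5D, from its lower-coordinate edge. ROBO1 and EPHA3 have at most 1 block per library in the body, and the blocks of different libraries do not overlap there.

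Agreement between lists was lower in these genes than in long genes as a class. Of all sequence in the 10 bodies that was in any list, 25.2% was in all 4, against 41.1% in long genes and 39.0% in all protein-coding genes. SLIT3 held 475 of the 518 kb in all 4 lists. Within the 10 windows the Jaccard index, shared over combined length, was 0.505 between the controls, 0.483 between the double loss lists and 0.412 to 0.471 between lists of different groups. Sequence that each double loss library and no control had was 2.59% of the bodies, against 2.29% in long genes, and the reverse was 0.359%, against 1.76%. DCC held 121 of the 195 kb of the first kind, and SLIT3 24 of the 27 kb of the reverse. Outside SLIT3 the regions over these genes had a median width of 24 and 16 kb in the controls and 26 and 24 kb with double loss, below the medians of their lists (30, 22, 29 and 29 kb). Their median log2 folds were 0.54 and 0.57, and 0.46 and 0.44, also below the medians of their lists (0.55, 0.60, 0.51 and 0.50).

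**Figure D5:**
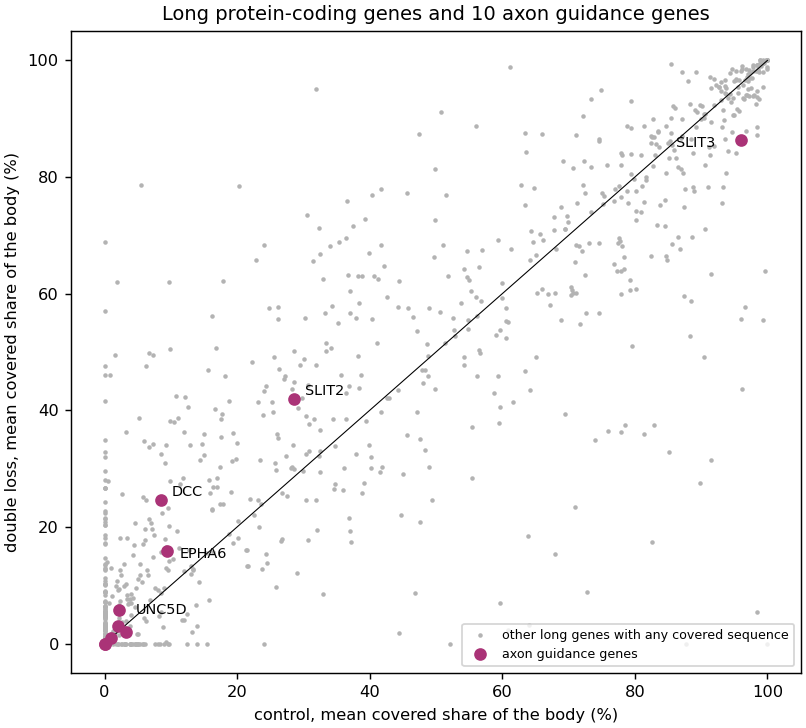
Mean covered share of the gene body in the control group (horizontal axis, %) against the double loss group (vertical axis, %), for protein-coding genes of at least the length of EPHA7 with covered sequence (grey) and the 10 axon guidance genes (purple); the line marks equal shares. DCC and SLIT2 lie above the line and SLIT3 below it, all 3 among other long genes with differences of that size or larger.

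The other 69 genes of the guidance system, Eph receptors, ephrins, netrins, semaphorins, plexins, neuropilins and further members, were mostly outside regions. No region met 57 of them in any list, and of the 12 with covered sequence limma called 0, with 2 higher and 1 lower at an unadjusted p under 0.05 (9.58% and 5.98% of all bodies fitted). Double loss lay above both controls in 4 of the 12 and below both in 3, where the background was 21.5% and 13.9%. None of 8 ephrins had covered sequence, nor did ROBO3, ROBO4 and SLIT1. EPHB1, another Eph receptor, and PLXNA2, a semaphorin receptor, were at least 50% covered in all lists. EPHB1 was at 95.9% and 90.0% against 96.8% and 95.9%, and PLXNA2 at 96.8% and 98.8% against 96.1% and 91.7%.

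The largest differences without overlap in the rest of the system were in SEMA6A and PLXNA4, in opposite directions. SEMA6A, a membrane-bound semaphorin on chromosome 5, was at 24.0% and 8.38% in the controls and at 66.6% and 72.7% with double loss (limma unadjusted p = 0.0173, adjusted p = 0.188). NTNG1, of the netrin G family, was at 44.4% and 24.1% against 46.7% and 54.8%, and RGMA, a repulsive guidance molecule, at 0% in both controls against 7.81% and 4.10%. In the other direction PLXNA4, a plexin on chromosome 7, was at 57.8% and 35.7% in the controls and at 13.1% and 4.19% with double loss (limma adjusted p = 0.292). NRP2, a neuropilin, was at 22.6% and 26.1% against 16.5% and 11.4%. Plexins and neuropilins had 3 of 11 genes covered and semaphorins 2 of 20, and none of these passed.

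For DCC and SLIT2, which had the 2 largest differences in body share, the long genes with the most similar shares in the 4 lists were sought among 1394 genes of at least 200 kb that lie over 1 Mb away. Closest to DCC were CNTN6, DLGAP1 and DGKB, with mean absolute differences of 1.57, 1.79 and 2.62 points. DLGAP1 is on chromosome 18 as well, with shares of 10.5% and 8.65% in the controls and a difference of 13.7 points. Closest to SLIT2 were ANKRD44, CEP128 and KCNH5, at 3.36, 3.37 and 3.73 points. With 4 lists, such likeness is a description of these libraries only.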

How the data were processed

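The submitters' processing notes name hg38, Bowtie2 2.3.4.3 and Picard; a region caller is not given in the sources used here. Per the file headers, the deposited lists give for each region counts of LaminB1 and of control library reads, a p-value with its adjusted p-value, a score, and a log2 fold. The score is 100 times that fold. Genotype and replicate number tied each list to its sample.

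Python 3.11.15 with numpy 2.4.6 and pandas 2.3.3 computed covered shares from RefSeq gene positions (GRCh38.p14), printed from 1. All protein-coding genes with covered sequence entered limma 3.58.1 (R 4.3.3), fitted to the arcsine of the square root of the share with a variance trend; p-values were adjusted over all genes by Benjamini-Hochberg, threshold 0.05. Coverage arithmetic and the fit were tested on simulated data.

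Of the other guidance genes, those called and the 3 per direction with the largest difference without overlap are named. Genes of like shares were ranked by mean absolute difference over the lists. The 10 genes, the lists and these rules were chosen with earlier results of these data known. Alternatives changed the regions, flanks, filter, scale and libraries used.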

Additional observations from a re-analysis of the deposited data

How the results depend on the processing

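Differences of the 10 genes' bodies and windows, in percentage points, kept their direction in 174 of 193 values over 13 alternatives, and 3 of these passed limma's threshold: EPHA7's window without double loss 2, and the SLIT2 (22.6) and DCC (18.1) windows with 500 kb flanks. SLIT3, SLIT2 and DCC kept their direction under all alternatives run. Untransformed shares, the filter on mean share and the replicate number as a block leave the difference of mean shares as it was. Values from these alternatives are counted among the 174 but could not reverse. Reversed were, with the upper 50% of regions by fold, the ROBO2 body (1.38) and window (1.12), the UNC5D body (-2.23) and window (-1.30) and the EPHA6 window (-0.111); with quantile-normalized shares the EPHA3 body (-3.42) and window (-0.326) and the EPHA6 (-1.39) and UNC5D (-2.53) bodies; and the ROBO2 window with 100 kb flanks (0.290) and the ROBO1 window with 500 kb flanks (0.230). Leaving out 1 library at a time gave -2.003 to 4.14 for the EPHA3 body, -1.15 to 0.897 for the ROBO1 body, -1.15 to 7.09 for the EPHA6 window, -1.21 to 0.127 for the ROBO1 window and -3.36 to 2.57 for the ROBO2 window. The cause was not tested.

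Over all genes, 51 bodies were called higher and 30 lower, and 122 and 86 windows. Leaving out 1 library gave 106 to 377 bodies higher and 121 to 228 lower, and 0 to 632 windows higher and 0 to 60 lower; the lone library of a group is then assumed to vary like the others. With gaps of up to 10 kb joined, 54 bodies were lower. Windows called were 2 higher and 5 lower with the upper 50% of regions, 71 higher with untransformed shares, 186 higher with a mean share of at least 5%, 0 and 0 with 100 kb flanks (limma, 684 and 396 at an unadjusted p under 0.05), and 861 and 407 with 500 kb flanks. Of the 10 genes, 5 had covered sequence in all lists, 1 at least 50%, 0 at least 95%, and 0 reached 50% with the upper 50% of regions.

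With the replicate number as a block (replicate block), limma called 0 bodies higher and 0 lower, with 194 and 134 at an unadjusted p under 0.05. Windows called were 111 higher and 101 lower with the block. Same-numbered libraries deviated from their group means with a correlation of -0.020 over genes, so the numbers were not taken as pairs.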
